A study of Mus musculus with 12 samples.

Results

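The comparison described here is that of Ercc1-/- mice (KO) with wild type mice (WT) in the cerebellum at postnatal day 21, on 6 of the 12 arrays of the series. The members are the 3 KO and the 3 WT cerebellum arrays, taken from the labels, with the linear intensity of 45037 probe sets on each after the control probe sets were left out. Hippocampus was profiled as well, with 3 arrays per genotype, and enters here only where the KO and WT difference is set beside that of the cerebellum. The mice of all groups were FVB and C57BL/6 crosses, WT animals were littermates, and both regions came from 3 mice of each genotype. The labels do not say whether tissue of several animals was pooled on an array. With only 6 arrays the precision is limited, and a p-value speaks of the spread between them, which may be technical in part.

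Ercc1 forms a nuclease with Xpf that cuts beside bulky lesions in nucleotide excision repair and also serves to unhook crosslinked strands, and mice without it grow poorly and age early. The cerebellum consists mostly of granule neurons, with Purkinje cells, Bergmann glia (the radial astrocytes of its cortex), other astrocytes, myelinating oligodendrocytes and microglia, the resident macrophages of the brain. Activated astrocytes raise the intermediate filament protein Gfap, and activated microglia raise lysosomal proteases and complement, which are widely used as marks of glial reaction.

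Gene names could be given only to probe sets on the authors' short lists, since the deposited intensity tables hold probe set numbers. Of 610 listed probe sets 538 have 1 current symbol, for 486 genes. Of these, 313 are on the authors' cerebellum list, which was selected for a KO and WT difference on the arrays analysed here, so their direction and the lack of overlap between groups are not independent of that choice. The other 225 are named only by the hippocampus list, selected on hippocampus arrays from the mice of the same study. Gene lists are therefore described by counts and medians, and no count of members from the cerebellum list is evidence of its own.

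Array medians of intensity lay between 154.4 and 168.2. The ratio of the 3' to the 5' control probe set of Gapdh, a measure of how complete the labelled RNA was, was 1.497 on the array of KO replicate 1 and 0.999 to 1.20 on the other 5. The same ratio for actin was 2.47 on KO 1, 2.20 on WT 1 and 2.09 on WT 3. It was 1.84 on KO 3, 1.77 on WT 2 and 1.71 on KO 2. WT replicate 2 stood apart along the leading principal component, which holds 39.6% of the variance. A set of 11 probe sets parted KO 1, KO 2, KO 3 and WT 2 from WT 1 and WT 3 by a gap of at least 1.5 log2 units. Probe set 1427262_at read 4942, 3668 and 3789 on the KO arrays and 34.4, 3407 and 32.1 on the WT arrays, and 1426438_at read 6.03, 5.31 and 3.34 on the KO arrays and 700.4, 2.4 and 1002 on the WT arrays. Of the 11 probe sets 9 placed the hippocampus arrays with the same numbers on the same sides. None of the 11 could be named (0), the labels give no property of the animals that follows these sides, and all 3 KO arrays stood on one side. The labels give neither the sex nor the litter of an animal. If the sides mark such a property, all 3 KO arrays and 1 WT array share it, and it cannot be told apart from genotype except through WT 2. Its part in the KO and WT differences was not tested. Differences without KO 1 and without WT 2 are given beside many of the named genes with the smallest p.

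**Figure D1:**
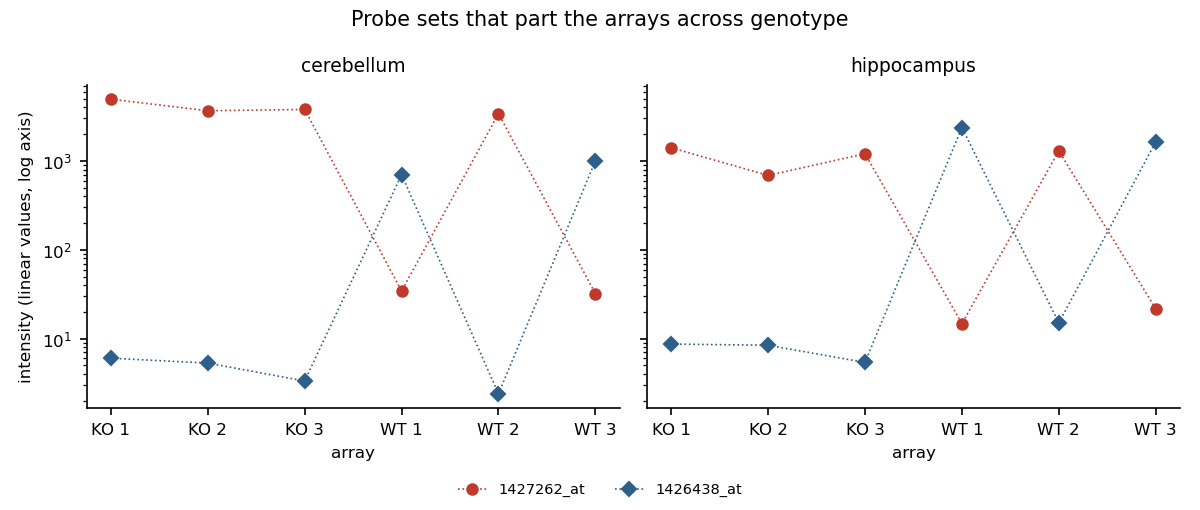
Intensity (linear values on a log axis) of 2 probe sets without a gene name on the 6 cerebellum arrays (left) and the 6 hippocampus arrays (right), 1 point per array. In both regions WT 2 lies with the KO arrays and apart from WT 1 and WT 3.

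Ercc1, the disrupted gene, gave less signal in KO. Its probe set 1417328_at read 55.9, 64.7 and 70.3 on the KO arrays and 223, 170.2 and 115 on the WT arrays. All KO arrays were below all WT arrays. Group means were 63.6 ± 7.28 in KO and 169.6 ± 54.1 in WT (SD, 3 arrays a group), and the difference on the log2(intensity + 32) scale, used for all differences below, was -1.04 ± 0.19 (SE). The WT arrays spread widely, from 115 to 223, and the KO arrays stayed within 55.9 to 70.3. The exact permutation p was 0.1 (two-sided), the smallest that 3 against 3 arrays allow, and the limma adjusted p over all probe sets was 0.485. No source used here says where this probe set lies relative to the disruption, so it checks the labels only as far as the transcript is lost there.

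No probe set passed an adjusted p of 0.05 in limma, with 0 higher (0% of those tested) and 0 lower (0%) in KO. At an unadjusted p under 0.05, 1035 probe sets were higher (2.3%) and 921 lower (2.04%). Their total of 1956 is below the 2252 that a threshold of 0.05 gives by chance. Groups without overlap were found at 1948 probe sets with KO higher (4.33%) and at 2488 with KO lower (5.52%). The median difference over all probe sets was -0.029. In a fit over all 12 arrays, which estimates the spread from both regions, 16 passed as higher and 3 as lower. Those 16 comprise Mt1, Mt2, Aldoc, Cst3, 3 probe sets of Gfap, Sult1a1, Hsd17b11, Plppr1, Fgf7, Cd24a, Gjb6, Ctss, D430019H16Rik and 1 probe set without a name, and the 3 are Nudt19, Tle6 and the unnamed 1457458_at.

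The 225 probe sets named only by the hippocampus list are those that the authors' cerebellum selection left out, so their counts too are shaped by it. Of them 16 were higher at an unadjusted p under 0.05 (7.11%, against 2.3% of all probe sets) and 12 were lower (5.33%, against 2.04%). Groups did not overlap for 28 higher (12.4%, against 4.33% of all probe sets) and 15 lower (6.67%, against 5.52%). Their median difference was 0.023. None passed after adjustment (0). The largest difference among them was that of Etnppl, the ethanolamine phosphate phospho-lyase that is abundant in astrocytes, which read 1376, 1072 and 731 on the KO arrays and 368, 295 and 330.4 on the WT arrays. Every KO array lay above every WT array, and the difference was 1.55 ± 0.21 (SE, adjusted p = 0.228), 1.34 without KO 1 and 1.47 without WT 2.

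The microglia markers that could be named had higher intensity in KO cerebellum. They were led by Ctss, which had the smallest p of all probe sets, though it missed the threshold. Of the 35 genes on the marker list 10 could be named, all 10 from the cerebellum list, and all 10 were higher with no overlap between groups. Such groups were found for 4.33% of all probe sets and 78.3% of the named ones on that list. The lack of overlap follows from the list's selection on these arrays. Their median difference was 0.70, within a range of 0.28 to 1.13, against -0.029 for all probe sets. The summed intensity of the 10 was 4649 to 4889 on the KO arrays and 2468 to 2987 on the WT arrays. In bulk tissue, more cells of a type and more RNA per cell cannot be told apart. None passed over all probe sets (0), and the other 25 list genes are not analysed here.

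Ctss encodes cathepsin S, a lysosomal cysteine protease that in brain is made mainly by microglia. It read 1103, 1247 and 1144 on the KO arrays and 523, 519 and 496 on the WT arrays. The WT arrays agreed closely and each KO array stood at more than 1000. Means were 1164 ± 74.3 in KO and 513 ± 14.6 in WT (SD, 3 arrays a group), and the difference was 1.13 ± 0.094 (SE, adjusted p = 0.0757), between 1.08 and 1.17 when any 1 array was left out, 1.17 without KO 1 and 1.14 without WT 2. Without WT 2 its limma adjusted p was 0.0313. With any other array left out it stayed above the threshold, from 0.0588 without KO 1 to 0.609 without WT 3. C1qa, C1qb and C1qc encode the chains of C1q, the first complement component, which in brain comes mainly from microglia. The promoters of Ctss, C1qb and C1qc, from 250 bases before to 50 after the gene's start, are shown because these microglial genes were all higher in KO. They are RefSeq sequences of build GRCm38.p6, 5′ to 3′ along the gene's strand, at chr3:95526536-95526835 (plus strand), chr4:136886151-136886450 (minus strand) and chr4:136892865-136893164 (minus strand). Capitals mark GAGGAA on either strand, the core that PU.1, a transcription factor of macrophages, binds.
Ctss: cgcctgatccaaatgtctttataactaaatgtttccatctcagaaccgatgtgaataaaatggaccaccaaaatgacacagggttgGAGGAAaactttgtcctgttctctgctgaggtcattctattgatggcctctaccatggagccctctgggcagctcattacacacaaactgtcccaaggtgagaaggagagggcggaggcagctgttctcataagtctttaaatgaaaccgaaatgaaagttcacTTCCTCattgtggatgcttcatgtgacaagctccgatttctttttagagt
C1qb: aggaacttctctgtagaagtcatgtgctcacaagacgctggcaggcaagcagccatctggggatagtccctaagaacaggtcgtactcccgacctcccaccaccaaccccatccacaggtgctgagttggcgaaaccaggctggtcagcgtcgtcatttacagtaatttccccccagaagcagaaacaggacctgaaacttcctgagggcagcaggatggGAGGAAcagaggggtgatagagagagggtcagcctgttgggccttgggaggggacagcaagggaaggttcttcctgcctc
C1qc: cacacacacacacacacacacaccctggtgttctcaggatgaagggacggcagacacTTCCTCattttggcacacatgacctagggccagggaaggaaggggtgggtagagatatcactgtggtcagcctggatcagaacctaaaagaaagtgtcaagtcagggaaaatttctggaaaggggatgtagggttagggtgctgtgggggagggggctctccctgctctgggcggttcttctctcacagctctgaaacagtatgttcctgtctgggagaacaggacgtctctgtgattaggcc
The Ctss promoter held 2 matches, and those of C1qb and C1qc held 1 each. Of 32851 promoters of this length 28.3% held at least 1 match and 4.82% at least 2, so the letters are common and a match is a description only.

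C1qa read 559, 671 and 637 on the KO arrays and 376, 285 and 263 on the WT arrays, a difference of 0.96 ± 0.14 (SE, adjusted p = 0.317). C1qc read 284, 402 and 384 on the KO arrays and 218, 152 and 147 on the WT arrays, a difference of 0.93 ± 0.17. In both genes KO 1 was the lowest KO array and WT 1 the highest WT array, with a gap between the groups. C1qb has 3 named probe sets, whose differences were 0.40, 0.60 and 1.02, so its size depends on the probe set. Fcgr3, a receptor for the Fc part of immunoglobulin G, read 179.6, 184 and 173 on the KO arrays and 107, 82.8 and 84.3 on the WT arrays, with a difference of 0.78 ± 0.11, 0.77 without KO 1 and 0.73 without WT 2. Its groups were well apart, the lowest KO array at 173 and the highest WT array at 107. Laptm5, a lysosomal membrane protein of blood-derived cells and microglia, had 0.87 ± 0.15. Smaller differences were those of Ly86, partner of a Toll-like receptor relative (0.54 ± 0.11), Tyrobp, the signalling adaptor of Trem2 (0.53 ± 0.11), and Mpeg1, a pore-forming protein of macrophages (0.28 ± 0.096). Without KO 1 the list median was 0.69, and without WT 2 it was 0.68.

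**Figure D2:**
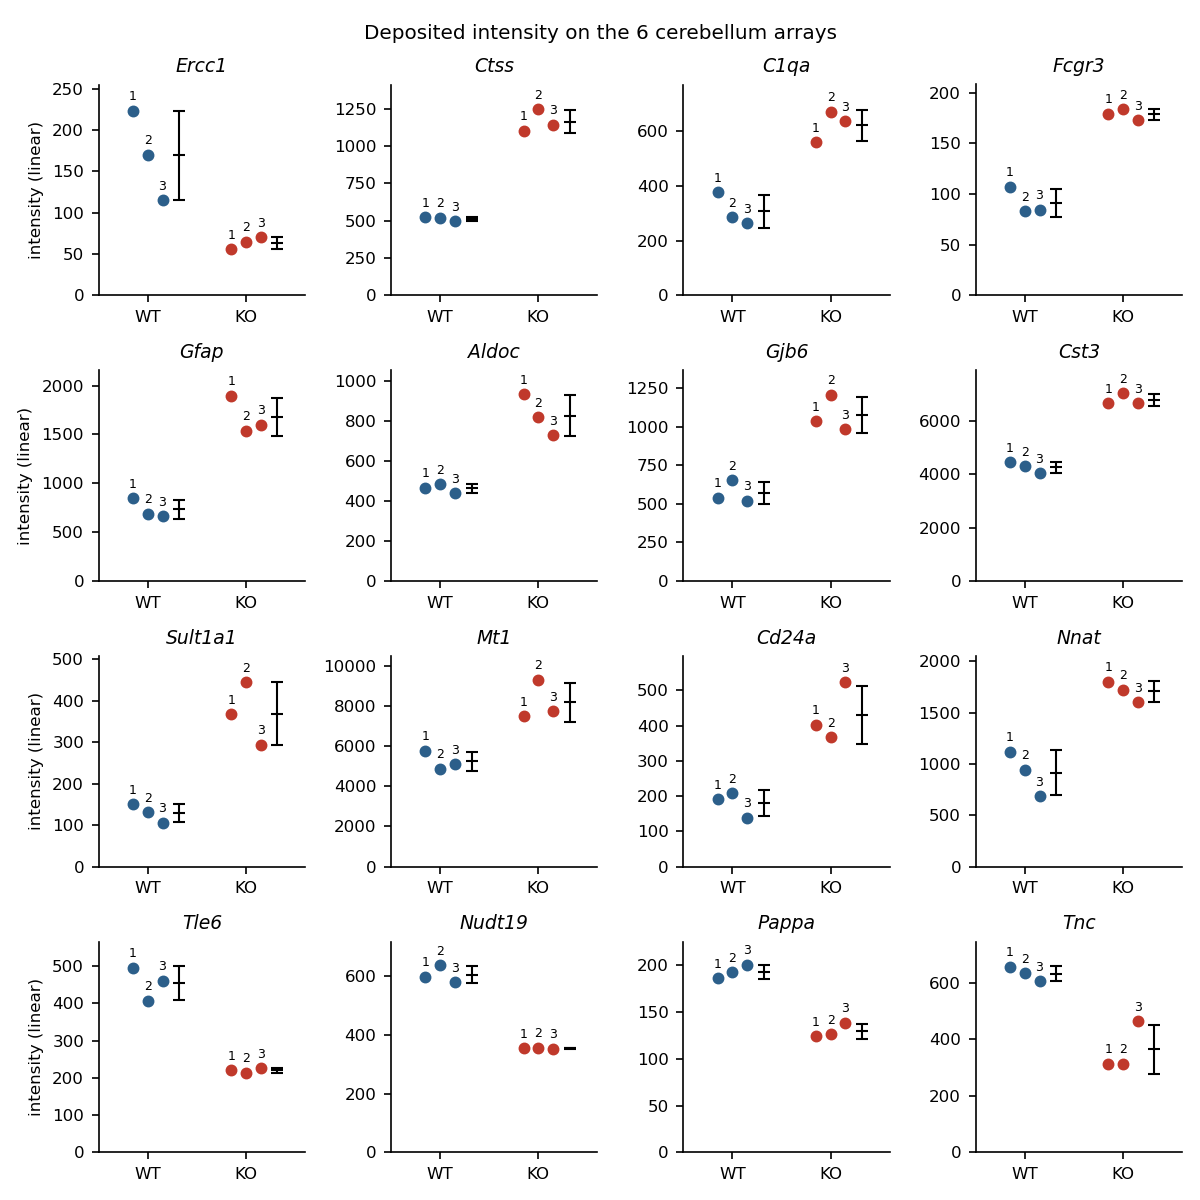
Deposited linear intensity of 16 genes on the WT (blue) and KO (red) cerebellum arrays, with replicate numbers beside the points and the mean ± SD (n = 3) in black. In each panel every KO array lies on one side of every WT array, and Ctss reads 1103 to 1247 in KO and 496 to 523 in WT.

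Among astrocyte and Bergmann glia markers the named genes went both ways. Of 30 list genes 11 could be named, 8 on the cerebellum list and 3 left out by it, a division that itself rests on the KO and WT difference of these arrays. The 8 on the cerebellum list were higher, and the 3 named only by the hippocampus list (Aqp4, Slc4a4 and Acsl6) had differences below 0 with a median of -0.07. Over all 11 the median was 0.52. Summed intensity was 29000.3 to 31463 on the KO arrays and 21724 to 23370.0 on the WT arrays, sums that include Cst3 and Glul, which other cells also express.

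Gfap was named on 3 probe sets, and all 3 placed the KO arrays above the WT arrays. The brightest, 1426509_s_at, read 1899, 1539 and 1599.8 on the KO arrays and 845, 688 and 665 on the WT arrays, a difference of 1.16 ± 0.13 (SE, adjusted p = 0.107). The other two differed by 1.35 ± 0.15 and 1.43 ± 0.16. No KO array of the brightest came near a WT array, and leaving out any 1 array kept its difference between 1.07 and 1.27, 1.07 without KO 1 and 1.12 without WT 2. Aldoc encodes aldolase C, an enzyme of glycolysis that in cerebellum marks astrocytes and also bands of Purkinje cells. Its values were 934, 819 and 731 on the KO arrays and 467, 484 and 438 on the WT arrays, with a difference of 0.79 ± 0.11 (adjusted p = 0.262). KO 1 was the highest array, and the difference without it was 0.70. Gjb6 encodes connexin 30 of astrocyte gap junctions. It read 1037, 1206 and 984 on the KO arrays and 540.5, 654 and 519.6 on the WT arrays, a difference of 0.88 ± 0.12. Itih3, a heavy chain of the inter-alpha-trypsin inhibitors of the matrix, read 2321, 2345 and 1853 on the KO arrays and 1211, 1130.2 and 982 on the WT arrays, a difference of 0.95 ± 0.12, 0.90 without KO 1 and 0.97 without WT 2. In both genes all KO arrays were above all WT arrays.

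Cst3 encodes cystatin C, a secreted inhibitor of cathepsins that astrocytes and microglia make in quantity. It was among the brightest named genes and read 6661, 7038 and 6678 on the KO arrays and 4444, 4303 and 4043 on the WT arrays. The groups were tight and far apart, and the difference was 0.67 ± 0.068 (SE, adjusted p = 0.107), 0.68 without KO 1 and 0.68 without WT 2. Glul, glutamine synthetase, which clears glutamate in glia, had 0.51 ± 0.09 and 0.61 ± 0.12 on its 2 probe sets. Gdf10, a growth factor of Bergmann glia, had 0.52 ± 0.11, and Htra1, a secreted serine protease, had 0.36 ± 0.087. Aqp4, the water channel of astrocyte end feet, showed no such separation. Its brighter probe set read 3739, 4324 and 4145 on the KO arrays and 3830.1, 4794 and 4019 on the WT arrays, with overlapping groups and a difference of -0.046 ± 0.10, and its other probe set had -0.15 ± 0.16. Slc4a4, a bicarbonate transporter of astrocytes, had -0.07 ± 0.15 on its brightest probe set, with overlap. Acsl6, an enzyme that activates long-chain fatty acids, had -0.18 ± 0.11, with every KO array below every WT array.

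**Figure D3:**
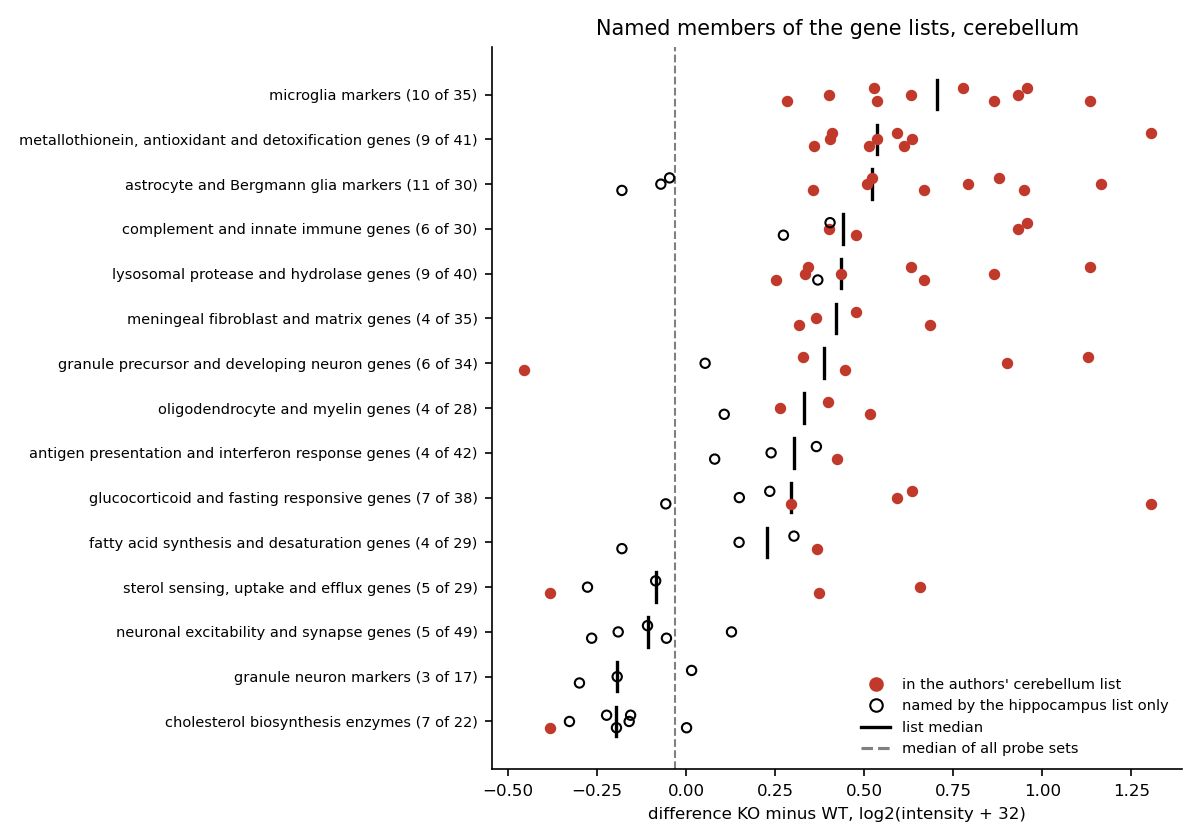
Difference KO minus WT on the log2(intensity + 32) scale for each named member of the lists with at least 3 named genes, 1 point per gene at its brightest named probe set, with the list median (black bar), the number named of the list's size, and the median of all probe sets (dashed). Filled points are on the authors' cerebellum list, chosen on these arrays, and open points are named by the hippocampus list only; the 10 microglia markers are all filled and lie between 0.28 and 1.13, and 6 of 7 cholesterol enzymes are open.

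Every named lysosomal gene had higher intensity in KO. Of 40 list genes 9 could be named, 8 of them from the cerebellum list, and all 9 were higher without overlap, with a median of 0.44. Of all probe sets 4.33% were higher without overlap, and for the 8 the lack of overlap follows from the list's selection. Beside Ctss, Cst3 and Laptm5, the list holds Lamp2, a structural protein of the lysosomal membrane (0.44 ± 0.11), Grn, the precursor of granulins (0.34 ± 0.09), and the fucosidases Fuca2 (0.33 ± 0.11) and Fuca1 (0.25 ± 0.098). Ctsc, the cathepsin that activates serine proteases, is the member not on the cerebellum list. It read 180.4, 172 and 171 on the KO arrays and 134, 118 and 132 on the WT arrays, a difference of 0.37 ± 0.092 (SE, adjusted p = 0.832). The median was 0.36 without KO 1, whose own median was the highest of the KO arrays.

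Of 30 complement and innate immune genes 6 could be named, and all 6 had differences above 0, with a median of 0.44. Serping1, the inhibitor of C1, had 0.48 ± 0.11 and is on the cerebellum list. The 2 members outside it were Lgals3bp, a secreted galectin ligand raised in inflammation, with 0.40 ± 0.15, and C4b, complement component 4, with 0.27 ± 0.14 and overlapping groups. C4b read 742, 603 and 521 on the KO arrays and 488, 549 and 477 on the WT arrays, so that KO 3 lay below WT 2. Among 42 antigen presentation and interferon genes 4 could be named. The class I chain H2-K1 had 0.42 ± 0.12, and its partner beta-2-microglobulin, B2m, named by the hippocampus list only, had 0.37 ± 0.13 with no overlap. The interferon gene Ifit2 had 0.24 ± 0.12 and the immunoglobulin heavy chain Ighm had 0.081 ± 0.097, both with overlap. H2-K1 is 1 of a family of near-identical class I genes, whose signals the array may not part.

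The metallothionein, antioxidant and detoxification genes that could be named lay on the same side. Of 41 list genes 9 could be named, all from the cerebellum list, and all 9 were higher without overlap, with a median of 0.54. Of all probe sets 4.33% were higher without overlap, and of the named ones on that list 78.3%. The lack of overlap follows from the list's selection on these arrays. Mt1 and Mt2 encode metallothioneins, small proteins that bind zinc and copper and whose genes are switched on by metals, glucocorticoids and inflammation. Their promoters are shown because both genes were bright and passed in the 12-array fit. The sequences are from RefSeq, build GRCm38.p6, both on the plus strand, at chr8:94178839-94179138 and chr8:94172368-94172667. Capitals mark TGCNCNC on either strand, a loose form of the core of the metal response element bound by the factor Mtf1.
Mt1: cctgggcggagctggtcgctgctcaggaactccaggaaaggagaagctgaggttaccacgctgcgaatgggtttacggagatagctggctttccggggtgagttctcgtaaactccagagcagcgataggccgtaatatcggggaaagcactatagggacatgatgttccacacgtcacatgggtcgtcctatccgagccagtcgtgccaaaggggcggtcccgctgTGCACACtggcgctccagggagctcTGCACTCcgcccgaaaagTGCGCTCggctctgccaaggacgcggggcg
Mt2: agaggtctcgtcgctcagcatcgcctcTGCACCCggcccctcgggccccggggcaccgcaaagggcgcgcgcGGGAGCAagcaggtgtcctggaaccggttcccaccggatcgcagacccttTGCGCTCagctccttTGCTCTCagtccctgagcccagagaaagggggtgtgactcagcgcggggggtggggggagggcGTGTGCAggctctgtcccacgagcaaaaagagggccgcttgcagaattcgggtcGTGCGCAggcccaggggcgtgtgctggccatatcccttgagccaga
The Mt1 promoter held 3 matches, all on the gene's strand, and the Mt2 promoter 6, with 3 on each strand. Of all 32851 promoters 51.0% held at least 1 match, 6.43% at least 3 and 0.152% at least 6.

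Mt1 read 7498, 9306 and 7735 on the KO arrays and 5763, 4867 and 5104 on the WT arrays, a difference of 0.64 ± 0.10 (SE, adjusted p = 0.45). Mt2 read 7985, 7525 and 6671 on the KO arrays and 5373, 4279 and 5057 on the WT arrays, a difference of 0.59 ± 0.10 (adjusted p = 0.485). Both genes parted the groups, with WT 1 the WT array nearest to KO for each. In the 12-array limma fit their adjusted p-values were 0.0423 and 0.0499. Sult1a1, a sulfotransferase that conjugates phenols, had the largest difference of the list. It read 368, 445 and 295 on the KO arrays and 151, 132 and 106 on the WT arrays, a difference of 1.30 ± 0.16 (adjusted p = 0.201), 1.30 without KO 1 and 1.32 without WT 2. The lowest KO array, KO 3, still stood well above the highest WT array. The microsomal glutathione transferase Mgst1 had 0.61 ± 0.12, 0.50 without KO 1. Nqo1, a quinone reductase, had 0.54 ± 0.14, the amine oxidase Maob of astrocytes 0.51 ± 0.10, the plasma glutathione peroxidase Gpx3 0.41 ± 0.11, and the glutathione transferases Gsta4 and Gstm5 0.40 ± 0.094 and 0.36 ± 0.094. Of 38 glucocorticoid and fasting responsive genes 7 could be named, among them Mt1, Mt2 and Sult1a1 again. Fam107a, a stress-induced actin regulator, had 0.30 ± 0.084 and 0.35 ± 0.093 on 2 probe sets. The 3 members outside the cerebellum list overlapped between groups. They were Igfbp3 (0.24 ± 0.14), Errfi1, a feedback inhibitor of the EGF receptor (0.15 ± 0.12), and Angptl4, an inhibitor of lipoprotein lipase and the member of the list below 0 (-0.057 ± 0.15). Their median was 0.15.

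**Figure D4:**
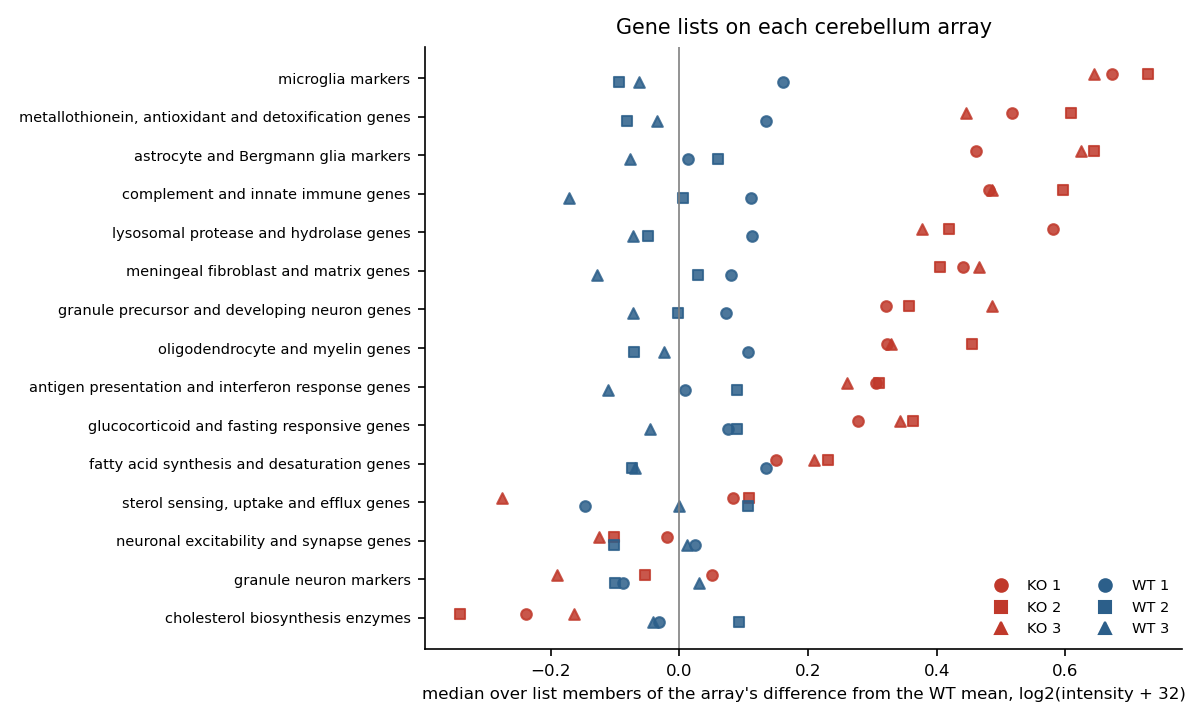
Median over the named members of each list of an array's difference from the WT mean, on the log2(intensity + 32) scale, for KO (red) and WT (blue) arrays, with the symbol giving the replicate number. For microglia markers the KO arrays lie at 0.64 to 0.73 and the WT arrays at -0.094 to 0.16, and for granule neuron markers the groups overlap.

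Few neuronal markers could be named, and most had small differences. Of 17 granule neuron markers 3 were named, all by the hippocampus list only, each with a mean intensity of at least 1681. Their median difference was -0.19, -0.12 without KO 1 and -0.24 without WT 2, and the groups overlapped for all 3. Kcnd2, a potassium channel of the A type, had -0.30 ± 0.23, and leaving out 1 array moved it between -0.53 and -0.12. Grin2c, the NMDA receptor subunit of mature granule neurons, had -0.19 ± 0.10, between -0.26 and -0.12. Neurod1, a transcription factor of granule neurons, had 0.016 ± 0.067. Among Purkinje cell markers, Homer3, a postsynaptic scaffold of these cells, had -0.16 ± 0.098 with overlapping groups. Of 49 excitability and synapse genes 5 were named, none from the cerebellum list (0), and their median was -0.11, -0.18 without WT 2. The potassium channel Kcnc1 had -0.26 ± 0.11 on its brighter probe set and -0.19 ± 0.19 on the other, Syt2, a synaptotagmin of fast synapses, had -0.11 ± 0.097, and the calcium channel Cacna1a had 0.13 ± 0.095. Kcna1, a potassium channel of axons, had -0.055 ± 0.13, and Cacna2d1, an auxiliary calcium channel subunit, had -0.19 ± 0.14 and 0.041 ± 0.20 on probe sets of opposite sign. Kcnk9, a leak potassium channel of granule neurons that is on none of these lists, was higher instead. It read 1109, 855 and 865 on the KO arrays and 499, 474 and 427 on the WT arrays, a difference of 0.96 ± 0.13 (SE, adjusted p = 0.224), 0.84 without KO 1 and 0.97 without WT 2. Its groups did not overlap.

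The genes of developing neurons that could be named mostly had higher intensity in KO. Of 34 list genes 6 could be named, 5 from the cerebellum list, and 5 had differences above 0, with a median of 0.39. Cd24a, a surface glycoprotein of immature neurons and also of some blood cells, read 403, 366 and 524 on the KO arrays and 192, 209 and 139 on the WT arrays, a difference of 1.13 ± 0.17 (SE, adjusted p = 0.323), and 0.91 ± 0.19 on its other probe set. Nnat, a small membrane protein of the developing brain, read 1799.8, 1722 and 1599 on the KO arrays and 1119, 944 and 686 on the WT arrays, a difference of 0.90 ± 0.16. Both genes parted the groups on every array, and in Nnat the WT arrays were spread more widely than the KO arrays. Dpysl3, a regulator of growth cones, had 0.45 ± 0.11, and the adhesion molecule Ncam1 had 0.33 ± 0.11. Cntn2, an axonal adhesion molecule of young granule neurons and the member outside the cerebellum list, had 0.054 ± 0.08 with overlap. Pde1c, a phosphodiesterase activated by calmodulin, ran the other way, with -0.46 ± 0.14 and -0.66 ± 0.14 on 2 probe sets.

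Markers of other cell types also differed between the groups. Of 28 myelin genes 4 could be named. Mal, a proteolipid of compact myelin, read 3987, 5116 and 4324 on the KO arrays and 3237, 3154 and 2917 on the WT arrays, a difference of 0.52 ± 0.10, and 0.66 ± 0.16 on its other probe set. Neither probe set overlapped between the groups. Mobp, an abundant protein of the myelin sheath, had 0.40 ± 0.10 and 0.40 ± 0.08, and Ermn, a cytoskeletal protein of myelin sheaths, had 0.26 ± 0.10. Mbp, whose protein compacts the sheath, read 547, 252 and 346 on the KO arrays and 381, 229 and 429 on the WT arrays, with overlap and a difference of 0.11 ± 0.29. Of 35 meningeal fibroblast and matrix genes 4 could be named, all from the cerebellum list and all higher, with a median of 0.42. Of the named probe sets on that list 78.3% were higher. Fmod, a collagen-binding proteoglycan, had 0.68 ± 0.12 and 0.58 ± 0.12, Col1a2, a chain of type I collagen, 0.37 ± 0.10 and 0.38 ± 0.12, and Sparc, a matrix protein that glia also make, 0.32 ± 0.064. Of 25 endothelial and pericyte markers 2 could be named, Mfsd2a, the lipid transporter of the blood-brain barrier (0.31 ± 0.095), and Ly6a (0.18 ± 0.089). No oligodendrocyte precursor or choroid plexus marker could be named (0 of 8 and 0 of 12).

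The listed red blood cell transcripts had lower intensity in KO. Of 13 red blood cell genes 1 could be named, Alas2. Alas2 and the 4 globin probe sets below are on the authors' cerebellum list. Their side and lack of overlap are thus not independent of its selection on these arrays. Of all probe sets 5.52% were lower without overlap, and of the named ones on that list 21.7%. Alas2, the first enzyme of haem synthesis in red cells, read 129, 112 and 155 on the KO arrays and 219.5, 169 and 234 on the WT arrays, a difference of -0.54 ± 0.14. The 4 probe sets listed for several globin genes, which share sequence, had differences of -0.60 to -0.41, and every KO array was below every WT array. The summed intensity of the 4 named meningeal and matrix genes was 7773 to 8335 in KO and 6141 to 6424 in WT. All 4 are on the cerebellum list, and they include Sparc, which glia also make, and Serping1, counted with complement above. The sum therefore cannot part the brain's coverings from glia. The part of blood and of the brain's coverings in the glial differences was not tested.

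Cholesterol synthesis, which the title of the series names for the forebrain, had small negative differences in cerebellum. Of 22 enzymes 7 could be named, 6 of them by the hippocampus list only. Of those 7, 3 were lower without overlap, against 5.52% of all probe sets. Their median was -0.19, against -0.029 for all probe sets, and the array medians of the 3 KO arrays, -0.34 to -0.16 relative to the WT mean, lay below those of the WT arrays. Idi1, the isomerase of isopentenyl diphosphate, read 363, 343 and 405 on the KO arrays and 496, 534 and 446 on the WT arrays, a difference of -0.38 ± 0.11 (SE, adjusted p = 0.977). The gap between its groups was narrow, from 405 on KO 3 to 446 on WT 3. The sterol demethylase Cyp51 read 781, 877 and 1027 on the KO arrays and 1098, 1191 and 1085 on the WT arrays, a difference of -0.33 ± 0.12, and Hmgcs1, the synthase before HMG-CoA reductase, had -0.22 ± 0.086 and -0.25 ± 0.11 on 2 probe sets. For Fdft1, squalene synthase, the probe sets differed by -0.16 ± 0.14 and -0.20 ± 0.099, for Nsdhl, a sterol dehydrogenase, the value was -0.16 ± 0.10, and for the sterol oxidase Msmo1 it was -0.19 ± 0.14, with overlap for the brighter Fdft1 probe set, Nsdhl and Msmo1. None passed (0).

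Genes of sterol uptake and efflux went both ways. Of 29 list genes 5 could be named. Abca1, the transporter that exports cholesterol to apolipoproteins, read 1232, 1465 and 1127 on the KO arrays and 698, 914 and 781 on the WT arrays, a difference of 0.66 ± 0.14. Every KO array lay above every WT array. Mylip, a ubiquitin ligase induced by sterols, had 0.37 ± 0.13. Abca1 and Mylip are on the cerebellum list. Stard4, a carrier of sterol between membranes that is not, had -0.28 ± 0.10 with every KO array below every WT array. Insig1, a membrane protein that holds back sterol synthesis, had -0.085 ± 0.15 with overlap. Of 29 fatty acid genes 4 could be named. Scd1, the desaturase that makes oleate, had 0.30 ± 0.11 without overlap and is outside the cerebellum list. Elovl1, an elongase of very long chains, had 0.37 ± 0.12, and Acly, which makes cytosolic acetyl-CoA, had 0.15 ± 0.10 with overlap.

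The p53 targets that could be named, 2 of 34, had higher intensity in KO and are on the cerebellum list. Trp53inp1, a stress protein induced by p53, read 611, 621 and 574 on the KO arrays and 489, 447 and 397 on the WT arrays, a difference of 0.42 ± 0.11. Phlda3, an inhibitor of Akt induced by p53, read 612, 601 and 581 on the KO arrays and 512, 382 and 412 on the WT arrays, a difference of 0.44 ± 0.12. Both parted the groups on every array. In apoptosis and damage response, 2 of 26 genes could be named. Bid, a death agonist cleaved by caspase 8, had 0.15 ± 0.099 with overlap, and Cycs, cytochrome c, which also serves respiration, had -0.30 ± 0.088 without. The cell cycle gene Ccnd1 had -0.10 ± 0.11 with overlap. Igfbp3, a carrier of insulin-like growth factors, was given above, and Pappa, a protease that cleaves such carriers, is described next.

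Among genes lower in KO, Tle6, a corepressor of the Groucho family, had the smallest p of the named genes. It read 220.4, 214 and 226 on the KO arrays and 496, 407 and 461 on the WT arrays. The KO arrays lay within 213.6 to 226, below the lowest WT array, and the difference was -0.95 ± 0.10 (SE, adjusted p = 0.107), -0.95 without KO 1 and -1.02 without WT 2. Nudt19, a hydrolase of coenzyme A, read 355, 356 and 354 on the KO arrays and 598, 638 and 579 on the WT arrays, a difference of -0.72 ± 0.092 (adjusted p = 0.214), -0.72 without KO 1 and -0.68 without WT 2, and -0.33 ± 0.13 on its other probe set. Its 3 KO values differed by less than 3 intensity units. Pappa read 124, 126 and 139 on the KO arrays and 186, 193 and 201 on the WT arrays, a difference of -0.48 ± 0.092, -0.45 without KO 1 and -0.48 without WT 2. Tnc, the matrix glycoprotein tenascin C that Bergmann glia and immature astrocytes make, read 315, 314 and 466 on the KO arrays and 658, 635 and 607 on the WT arrays, a difference of -0.77 ± 0.15. KO 3 was the KO array nearest to WT, and without it the difference was larger, -0.94. The Tnc difference was -0.68 without KO 1 and -0.77 without WT 2.

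Nab2, Shank3, Sema7a and Hnrnpdl also had negative differences. Nab2, a repressor that binds Egr factors, read 680.5, 624 and 600.2 on the KO arrays and 1138, 862 and 913 on the WT arrays, a difference of -0.58 ± 0.12. Without KO 1 it was -0.63 and without WT 2 it was -0.66. Shank3, a scaffold of excitatory synapses, read 1894, 1923 and 1900.0 on the KO arrays and 2447, 2361 and 2389.8 on the WT arrays, a difference of -0.33 ± 0.074 with little spread. Without KO 1 it was -0.32 and without WT 2 it was -0.34. Sema7a, a membrane-anchored semaphorin, had -0.45 ± 0.10, -0.52 without KO 1 and -0.52 without WT 2. Hnrnpdl, an RNA-binding protein that regulates splicing, had -0.32 ± 0.10, -0.38 ± 0.098 and -0.49 ± 0.11 on 3 probe sets. All 4 genes are on the cerebellum list, and their limma adjusted p-values lay between 0.604 and 0.977. The largest negative difference among the probe sets with small p had no gene name. Probe set 1457458_at read 41.1, 27.4 and 25.6 on the KO arrays and 593, 259.5 and 299 on the WT arrays, a difference of -2.64 ± 0.26 (SE, adjusted p = 0.107). Probe set 1441430_at, also without a name, was higher, at 274, 308 and 182 on the KO arrays and 76.3, 70.4 and 68.2 on the WT arrays, a difference of 1.44 ± 0.17.

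Whether a difference was particular to cerebellum was tested as the KO effect in cerebellum minus that in hippocampus, in 1 fit over the 12 arrays, where 0 probe sets passed (0%). At an unadjusted p under 0.05 there were 1272 (2.82%). Ctss came closest, with 1.13 ± 0.073 in cerebellum and 0.25 ± 0.073 in hippocampus, a difference of 0.88 ± 0.10 (SE, adjusted p = 0.0717). Cst3 had 0.67 and 0.019 ± 0.065, a difference of 0.65 ± 0.092 (adjusted p = 0.128). Tle6 had -0.95 and 0.10 ± 0.10, a difference of -1.05 ± 0.15 (adjusted p = 0.128). Ercc1 itself had -1.04 and -1.30 ± 0.17, and Nudt19 had -0.72 and -0.85 ± 0.079. The named genes were chosen by region, which by itself moves such differences away from 0. The fit took the 12 arrays as independent, though both regions came from 3 mice of each genotype. With the replicate number taken as the mouse, a setting chosen after seeing the data, the smallest limma adjusted p was 0.892.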

How the data were processed

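RNA of cerebellum was hybridised to Affymetrix Mouse Genome 430 2.0 arrays, per the labels. Linear intensity per probe set was deposited by the authors, who analysed the arrays with dChip, per the series' design text. Its version, background step and normalization are not stated in those sources. The deposited short lists also hold a signed fold change, a score, and a p-value, neither of which was used here.

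Values were taken as log2(intensity + 32) of the deposited intensity, so differences of dim probe sets are understated. KO and WT were compared on 45037 probe sets with the R package limma (limma 3.58.1, R 4.3.3), using its linear model and moderated variances with a trend, adjusting p by Benjamini-Hochberg, with a threshold of 0.05 and no filter on low values. The fit was tested on simulated data. Symbols came from the authors' short lists, brought up to date with RefSeq tables of assembly GRCm38.p6, which also gave the promoters: 492 matched by symbol, 42 by synonym and 4 by accession. Some list members are not reported here. A gene stands for its brightest named probe set unless another is given. The members, gene lists and tests were chosen with earlier results of these data known. Genes named were Ercc1, the first 10 named probe sets by p in either direction, unnamed probe sets among the first 10 of all, and list members; the probe sets that part WT 1 and WT 3 from the rest, and Hsd17b11, Plppr1, Fgf7 and D430019H16Rik were named after their values were seen. No pair of arrays held identical values (0), and no sample column was left unused (0). Alternatives changed the pseudocount, the filter, the normalization, the eBayes settings, the arrays in the fit, a replicate block, the threshold and each array left out. Python 3.11.15, pandas 2.3.3, NumPy 2.4.6 and matplotlib 3.10.9 were used for tables and plots.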

Additional observations from a re-analysis of the deposited data

Results flagged for a closer look

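In 5 of the genes described above, every KO cerebellum array lay above every WT array while every KO hippocampus array lay below every WT array, so that the KO arrays lay on opposite sides in the 2 regions. The difference of effects, cerebellum minus hippocampus, was 1.01 ± 0.20 (SE) for Ermn (0.26 in cerebellum and -0.75 ± 0.14 in hippocampus), 0.88 ± 0.17 for Mal (0.52 and -0.36 ± 0.12), 0.76 ± 0.15 for Scd1 (0.30 and -0.46 ± 0.11), 0.73 ± 0.16 for Phlda3 (0.44 and -0.29 ± 0.12) and 0.56 ± 0.14 for Cacna1a (0.13 and -0.43 ± 0.10). In the limma test of the difference the adjusted p-values were 0.887, 0.887, 0.887, 1 and 1, so none passed. Among all 45037 probe sets 57 lay on these sides and 49 on the opposite ones, of which 17 and 2 could be named. The 5 are those of the 17 that the report describes. Ermn, Mal and Phlda3 are on the authors' cerebellum list, and Scd1 and Cacna1a are named by the hippocampus list only. Each list was selected for a KO and WT difference in its region, so the side in that region is not independent of the choice.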

How the results depend on the processing

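The count of 0 probe sets past the threshold in either direction held with a smaller (8) and a larger pseudocount, the filter on low values, quantile normalization, median centring, eBayes without the trend or robust, and the replicate block (0 and 0). The labels do not say what the numbers mark, and same-numbered KO and WT arrays shared only a number (correlations of deviations 0.0385, 0.2795 and -0.1836). The count moved in the fit over all 12 arrays (16 higher, 3 lower), at an adjusted p of 0.1 (1 higher, 0 lower) and at an unadjusted p under 0.05 joined with a 1.5-fold change (105 higher, 28 lower). Leaving out 1 array gave 0 to 5 higher and 0 to 11 lower: without WT 2, 5 and 11, all without a gene name except Ctss and Tle6 and with 1427262_at and 1426438_at among them; without KO 1, 2 and 0; without WT 1, 1 and 1. Without both KO 1 and WT 2, an alternative chosen after seeing the data, 43 were higher and 27 lower, and quantile normalization moved the split at an unadjusted p under 0.05 from 1035 higher and 921 lower to 1256 and 705, and median centring to 1175 and 794. The filter moved it to 762 and 407.

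The count of 0 for the difference between regions became 2 with a pseudocount of 8, 1 with the filter, 1 with the replicate block, 2 at an adjusted p of 0.1, 237 at an unadjusted p joined with 1.5-fold, and 0 to 5 with 1 array left out (5 without cerebellum WT 2, 1 without cerebellum WT 1); with the number taken as the mouse, also chosen after seeing the data, it stayed at 0. The adjusted p of the Ctss difference ranged from 0.0360 with a pseudocount of 8 to 0.892 with the number taken as the mouse.

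Of the named genes' differences reported here 9 reversed in some setting, all of genes whose groups overlapped: Aqp4 (-0.11 to 0.050 with 1 array left out, 0.11 without both), Mbp (-0.17 to 0.35, and -0.41 without both), Msmo1 (-0.29 to -0.082, and 0.025 without both), Slc4a4 (-0.21 to 0.048), Angptl4 (-0.19 to 0.056), Insig1 (-0.18 to 0.096), Kcna1 (-0.18 to 0.064, and -0.25 without both), Cacna2d1 (-0.31 to -0.056, and 0.021 without both) and Neurod1 (-0.028 to 0.049, and -0.000396 with quantile normalization). Of the list medians, that of astrocyte markers reversed for members outside the authors' cerebellum list (-0.070), and that of sterol uptake and efflux genes with 1 array left out (-0.18 to 0.096, and -0.20 without both). The cause of these changes was not tested. Differences of dim probe sets are understated by the pseudocount.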
